A study of Mus musculus with 27 samples.

Results

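The genes described here encode 3 bone morphogenetic protein (BMP) ligands (Bmp2, Bmp4 and Bmp7), 3 BMP receptors (Bmpr1a, Bmpr1b and Bmpr2) and the 4 Id proteins (Id1, Id2, Id3 and Id4). They were taken as every probe set whose annotation names exactly 1 of these 10 genes, which gave 25 of the 45101 probe sets on the array, and 10 of the 18194 genes that the array measures by name. A filter on low signals left 9 of the 10, among 13527 genes tested, and Bmp2 did not pass it. RNA of the mouse cerebellum had been hybridised to 27 Affymetrix arrays in 6 groups. The tumours were those of Math1-cre:SmoM2 mice (3 arrays), Tlx3-cre:SmoM2 mice (3), Olig2-tva-cre:SmoM2 mice (7), hGFAP-cre:SmoM2 mice (6) and Ptc1+/- mice (2). SmoM2 is an activated form of Smoothened, the membrane protein that passes on the Hedgehog signal, and the cre driver decides in which cells it is switched on. Ptc1+/- mice carry 1 working copy of the gene for Patched, which holds Smoothened in check. The 6 arrays of cerebellar tissue without tumour are labelled with the lines Olig2-tva-cre:SmoM2 (2), hGFAP-cre:SmoM2 (1), Mxi1-cre:SmoM2 (2) and Ptc1+/- (1). The line is the only information on genotype used here, and none of these controls is labelled wild type. Math1 (Atoh1) marks granule neuron precursors, and the human GFAP promoter is active in a wider pool of neural progenitors. The labels used here give no ages and do not say whether animals were pooled. Tumour samples are labelled as biological replicates, but the animals are not identified, and each p-value therefore reflects the scatter among these arrays.

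BMP ligands bind pairs of type I and type II receptors, which phosphorylate Smad1, Smad5 and Smad9. These enter the nucleus with Smad4 and switch on the Id genes, the best known direct targets of the pathway. Id proteins are helix-loop-helix proteins without a DNA-binding region. They capture E proteins, the partners that proneural factors such as Atoh1 need to bind DNA. In the cerebellum Sonic hedgehog drives the growth of granule neuron precursors, and BMP2 and BMP4 oppose that growth and lower Atoh1 protein. By its title, the study asks how Hedgehog-induced medulloblastoma relates to the identity of these precursors.

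Values are scaled MAS5 signals on the log2 scale, called levels below, and a difference of 1 is a doubling. Levels of different genes come from different probes and are not compared with each other. Low signals were raised to a floor at a level of 3.37. Differences over all tumours are the mean of the 5 tumour group means, each group counting equally whatever its number of arrays, minus the mean of tissue without tumour. A gene is called higher or lower where limma's p, adjusted over all 13527 genes, was under 0.05. The arrays as deposited had trimmed mean signals from 42.58 to 205.96 before scaling. The 7 dimmest, all under 85, were Olig2 tumours 3 to 7, hGFAP tumour 4 and Ptc1+/- tumour 2. Values without the dim arrays therefore rest on Olig2 tumours 1 and 2 alone and on Ptc1+/- tumour 1 alone in those groups. On 5 arrays the 3' to 5' ratio of control probe sets stood apart as high, at 1.67 to 1.88 on the log2 scale. Such a ratio can mark partly degraded RNA. The labelled tissues were checked by marker lists. Of 8 granule neuron precursor genes 6 rose over all tumours, and all 6 genes of mature granule neurons and all 5 of Purkinje cells fell. The 9 astrocyte and Bergmann glia genes split into 2 that rose and 7 that fell, all 6 microglia genes rose, and all 5 oligodendrocyte genes fell. The tumours therefore differ from the control tissue in many cell types, and in bulk RNA fewer cells of a type cannot be told apart from less RNA per cell.

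The Id genes did not move together. Id4 was lower than in tissue without tumour in every tumour group, and Id3 was higher in every SmoM2 group. Id1 was above all controls on 12 of 21 tumour arrays. The main probe set of Id2 was not called over all tumours, while its dimmest probe set was called higher. Over all tumours, 5 of the 9 tested members were called, 3 higher (Id1, Id3 and Bmpr1a) and 2 lower (Id4 and Bmpr1b). In that comparison 52.4% of all genes tested were called, 26.8% higher and 25.6% lower, so the number of members called is near the background and only the single genes are described.

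**Figure D1:**
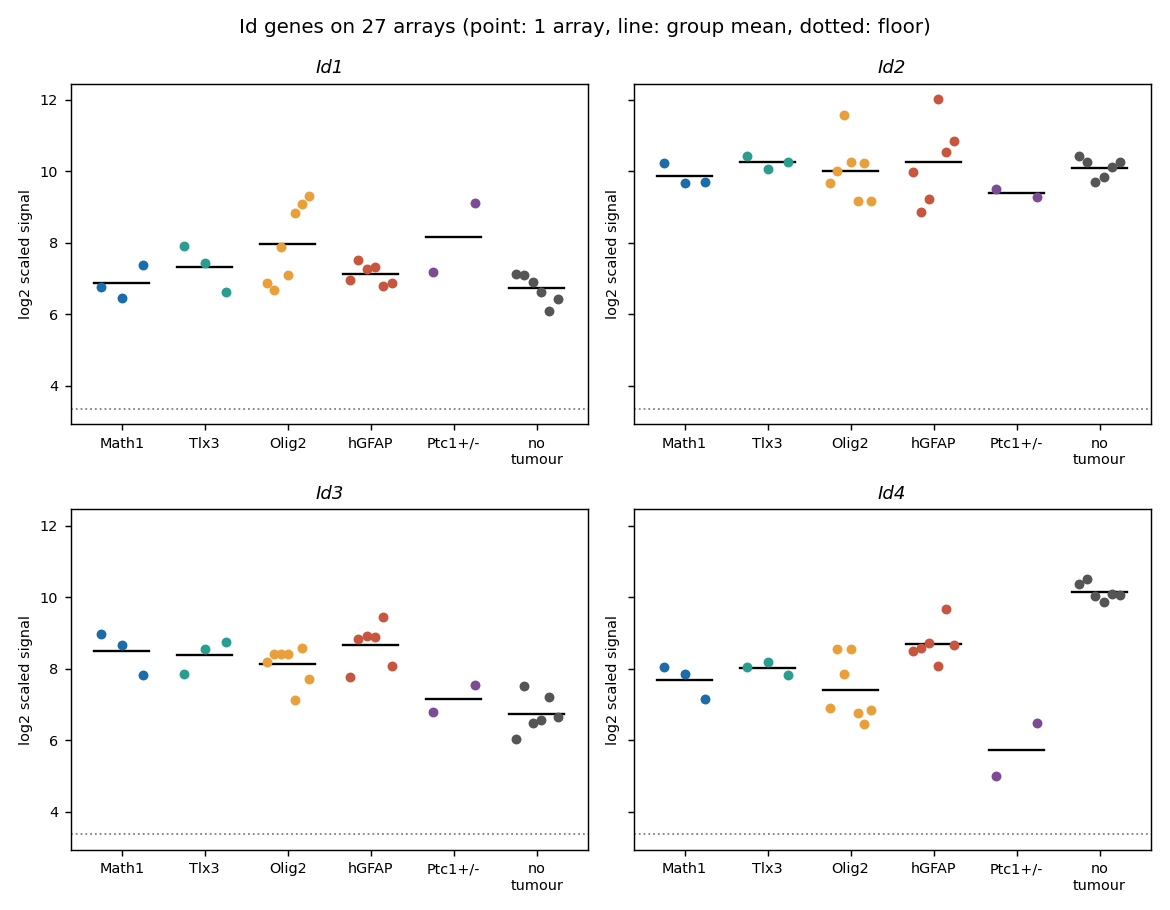
Levels of Id1, Id2, Id3 and Id4 (log2 scaled signal, vertical axis) on 27 arrays in the 5 tumour groups and, at the right, tissue without tumour; each point is 1 array, the line is the group mean and the dotted line is the floor. Id4 lies below every control array on all 21 tumour arrays, Id3 lies above every control array on 19 of them, and the 4 highest Id1 points belong to Olig2 tumours 5, 6 and 7 and Ptc1+/- tumour 2.

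The promoters of Id3, Id2 and Id4 are shown because these genes of 1 family behaved differently. Each sequence is the 300 bases from 250 before to 50 after the start of the gene in RefSeq, on build GRCm38.p6, read 5′ to 3′ on the strand of the gene. Capitals mark GGCGCC, a GC-rich letter pattern known for Smad1 and Smad5, and CAGAC, a pattern known for Smad4, on either strand (the reverse complement of CAGAC is GTCTG). The promoter of Id3 is chr4:136143572-136143871 on the plus strand, that of Id2 chr12:25096043-25096342 on the minus strand and that of Id4 chr13:48260866-48261165 on the plus strand.
Id3 promoter: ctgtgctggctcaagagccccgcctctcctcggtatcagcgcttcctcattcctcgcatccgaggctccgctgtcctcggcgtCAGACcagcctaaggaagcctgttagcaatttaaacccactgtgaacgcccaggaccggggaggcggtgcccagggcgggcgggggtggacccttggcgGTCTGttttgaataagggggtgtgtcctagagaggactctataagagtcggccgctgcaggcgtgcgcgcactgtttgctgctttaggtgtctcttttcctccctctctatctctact
Id2 promoter: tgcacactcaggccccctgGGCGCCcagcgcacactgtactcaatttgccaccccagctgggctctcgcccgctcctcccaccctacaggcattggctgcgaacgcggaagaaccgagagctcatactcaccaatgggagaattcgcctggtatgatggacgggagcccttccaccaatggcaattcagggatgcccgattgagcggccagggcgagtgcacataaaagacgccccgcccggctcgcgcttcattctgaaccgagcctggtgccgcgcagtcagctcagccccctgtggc
Id4 promoter: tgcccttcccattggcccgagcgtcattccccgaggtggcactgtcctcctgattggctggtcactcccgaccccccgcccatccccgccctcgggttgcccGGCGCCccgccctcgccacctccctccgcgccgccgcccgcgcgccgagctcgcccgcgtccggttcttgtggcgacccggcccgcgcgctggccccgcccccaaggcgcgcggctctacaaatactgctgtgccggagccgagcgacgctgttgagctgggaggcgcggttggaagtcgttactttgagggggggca
The Id3 window held 2 CAGAC and 0 GGCGCC matches. The windows of Id2 and Id4 each held 1 GGCGCC and 0 CAGAC matches. Among 32851 promoter windows of the same length, 11.9% held GGCGCC and 49.6% held CAGAC, so neither pattern is rare. The E-box CANNTG, the pattern that pairs of E proteins and proneural factors read, was found once in the Id2 window, in 0 places in those of Id3 and Id4, and in 72.3% of all windows. G and C made up 73.3% of the Id4 window, 63.3% of that of Id2 and 60.0% of that of Id3, where the median over all windows was 52.7%. Of the other members, Bmp4, Bmpr1a, Bmpr1b and Bmpr2 were in the table as well, and Id1, Bmp2 and Bmp7 were not matched. These matches describe letters and not bound sites.

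Id4, which in the brain is found in neural precursors and astrocytes, was lower in the tumours of all 5 groups. Its gene lies at chr13:48261116-48266028 (GRCm38.p6). The level was 8.04, 7.84 and 7.15 in Math1 tumours and 8.05, 8.18 and 7.82 in Tlx3 tumours. In Olig2 tumours it ran from 6.45 over a median of 6.89 to 8.55, and in hGFAP tumours from 8.07 over a median of 8.61 to 9.65. The Ptc1+/- tumours had 5.00 and 6.47, against 9.87 to 10.49 (median 10.07) in tissue without tumour. All 21 tumour arrays thus lay below all 6 control arrays, which 9.68% of the genes tested also did.

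The difference of Id4 was -2.64 over all tumours (SE 0.27, limma adjusted p = 1.39e-09). Math1 tumours differed by -2.48 (adjusted p = 1.01e-05), Tlx3 tumours by -2.14 (adjusted p = 8.00e-05) and Olig2 tumours by -2.74 (adjusted p = 1.85e-08). The smallest difference was that of hGFAP tumours, -1.46 (adjusted p = 0.000524), and the largest that of Ptc1+/- tumours, -4.42 (adjusted p = 1.35e-08). These comparisons share the same 6 control arrays. Group means ran upward from Ptc1+/- tumours at 5.73 ± 1.04 (SD, n = 2) to Olig2 at 7.41 ± 0.88 (n = 7), Math1 at 7.67 ± 0.47 (n = 3), Tlx3 at 8.02 ± 0.18 (n = 3) and hGFAP tumours at 8.69 ± 0.52 (n = 6), with tissue without tumour at 10.15 ± 0.23 (n = 6). Between neighbours in this order, Olig2 minus Ptc1+/-, Math1 minus Olig2, Tlx3 minus Math1 and hGFAP minus Tlx3, the adjusted p was 0.182, 0.878, 1 and 0.359, so only the step to the control tissue was called.

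All 3 probe sets of Id4 showed the fall. Those other than the brightest gave -2.21 (adjusted p = 8.98e-09 over all probe sets kept) and -1.40 (adjusted p = 5.14e-07) over all tumours. On the middle probe set all 21 tumour arrays were again below the controls, and on the dimmest 20 of 21, with 1 hGFAP tumour inside the range of the controls (8.64 to 9.28). The 3 probe sets ranked Ptc1+/- tumours lowest and hGFAP tumours highest among the tumour groups.

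**Figure D2:**
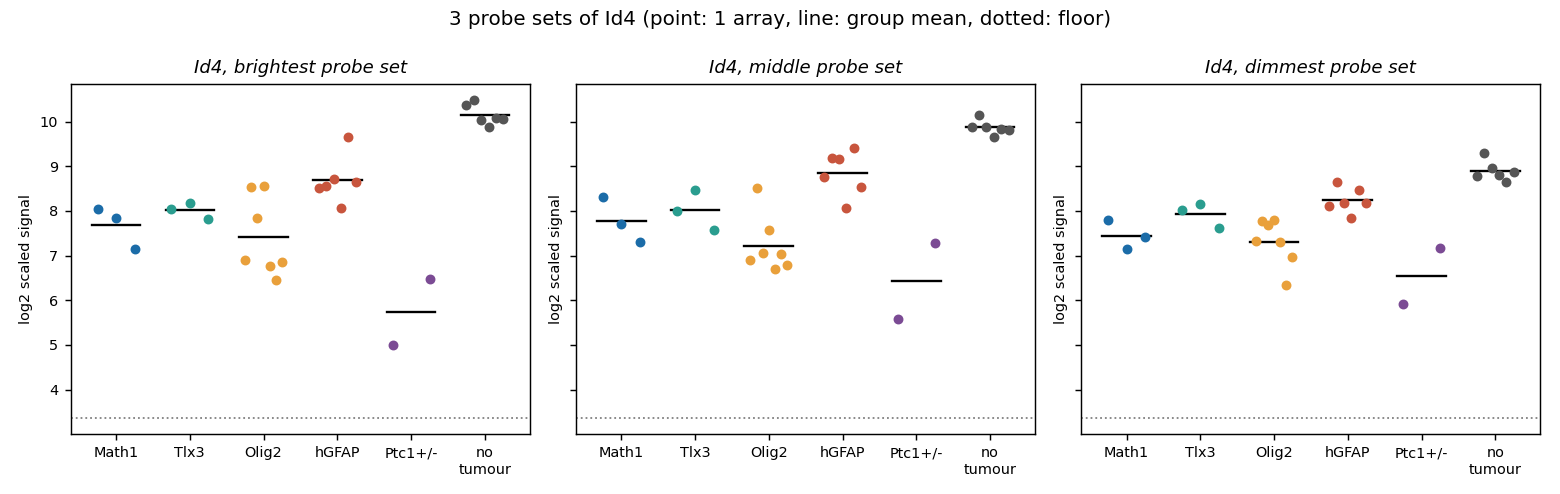
Levels (log2 scaled signal) of the 3 probe sets of Id4, brightest to dimmest from left to right, on 27 arrays; each point is 1 array and the line is the group mean. In all 3 panels the 5 tumour groups lie below tissue without tumour, with Ptc1+/- tumours lowest (means 5.73, 6.43 and 6.55) and hGFAP tumours nearest to the control tissue (means 8.69, 8.85 and 8.23).

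Markers of astrocytes and Bergmann glia, cells that express Id4, were also lowest in Ptc1+/- tumours and, among tumours, highest in hGFAP tumours. The log2 of their summed signal over 9 genes was 13.06 to 13.37 in Math1, 13.38 to 13.48 in Tlx3, 13.14 to 13.71 in Olig2, 13.29 to 13.93 in hGFAP and 12.43 to 12.96 in Ptc1+/- tumours, against 13.91 to 14.28 in tissue without tumour. Of the 9 markers, 0 were at the floor on all arrays of a group. Over all tumours Gdf10 differed by -2.76, Gjb6 by -2.65 and Aldoc by -2.34, while Gfap, the filament protein of astrocytes, rose by 2.24 and Fabp7 by 1.57. This order was not particular to glia. Median sums of mature granule neuron markers were also lowest in Ptc1+/- (11.05) and, among tumours, highest in hGFAP tumours (12.12). The same held for Purkinje cell markers (7.44 and 10.30). Oligodendrocyte markers were lowest in Ptc1+/- tumours (9.02) and, among tumours, highest in Tlx3 tumours (11.26). On the other marker lists the lowest tumour group was not Ptc1+/-. The part of any of these cell types in the fall of Id4 was not tested.

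Id3, which also binds E proteins and is a direct BMP target, was higher in the SmoM2 tumours. Its gene lies at chr4:136143822-136145392, and 1 probe set measures it. The level was 8.97, 8.65 and 7.82 in Math1 tumours and 7.86, 8.54 and 8.74 in Tlx3 tumours. It ran from 7.13 over a median of 8.41 to 8.58 in Olig2 tumours and from 7.76 over a median of 8.85 to 9.45 in hGFAP tumours. The Ptc1+/- tumours had 6.79 and 7.54, against 6.04 to 7.51 (median 6.60) in tissue without tumour. Of 19 SmoM2 arrays 18 lay above all controls, the exception being an Olig2 tumour at 7.13, while 1 of the 2 Ptc1+/- arrays lay within the controls. For all 19 SmoM2 arrays to lie above the controls held for 8.6% of genes, and for all 21 tumour arrays for 8.14%, and Id3 was in neither set.

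The difference of Id3 was 1.42 over all tumours (SE 0.24, adjusted p = 1.34e-05). The SmoM2 groups gave 1.74 for Math1 (adjusted p = 0.000289) and 1.64 for Tlx3 tumours (adjusted p = 0.000586), and 1.38 for Olig2 (adjusted p = 0.000167) and 1.91 for hGFAP tumours (adjusted p = 4.97e-06). In Ptc1+/- tumours it was 0.42 (95% interval -0.43 to 1.28, adjusted p = 0.46). Ptc1+/- tumours minus the mean of the SmoM2 groups gave -1.245, which did not pass (interval -2.03 to -0.46, adjusted p = 0.167). Id3 is also carried by blood vessels. Of 7 endothelial genes 0 rose and 3 fell over all tumours, with a summed log2 level of 9.07 to 9.12 in Math1, 8.67 to 8.96 in Tlx3, 8.86 to 9.50 in Olig2, 8.88 to 9.60 in hGFAP and 9.04 to 9.07 in Ptc1+/- tumours, against 9.09 to 9.75 in tissue without tumour. The endothelial ranges of Math1, Olig2 and hGFAP tumours overlapped that of the controls, and none reached above it. Of 7 mural and meningeal genes 3 rose and 2 fell, with sums of 9.88 to 10.55 in Math1, 9.95 to 10.07 in Tlx3, 9.79 to 10.82 in Olig2, 10.67 to 11.09 in hGFAP and 9.80 to 10.13 in Ptc1+/- tumours, against 9.60 to 10.72 in tissue without tumour. Of 7 choroid plexus genes 1 rose and 0 fell, with a median sum of 9.11 for Math1 and 12.54 for Tlx3 tumours, 12.44 for Olig2 and 12.53 for hGFAP tumours and 10.62 for Ptc1+/- tumours, against 8.79 in tissue without tumour, where the highest array reached 13.39. The part of these cells in the level of Id3 was not tested.

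The scaling of an array cancels in the difference between 2 genes on it. The level of Id3 minus that of Id4 was 0.67 to 0.94 in Math1, -0.19 to 0.92 in Tlx3, -0.13 to 2.13 in Olig2, -0.75 to 0.82 in hGFAP and 1.07 to 1.79 in Ptc1+/- tumours, against -4.32 to -2.86 in tissue without tumour. No tumour array overlapped the controls. The separation does not show that each gene moved. For Id4 alone all 21 tumour arrays already lay below all 6 control arrays, as for 9.68% of the genes tested. The share of gene pairs separated in this way was not counted. In Ptc1+/- tumours, which had the highest median (1.43), Id3 was not called.

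Id1, the target most used as a readout of BMP signalling, was above all controls on 12 of 21 tumour arrays, and over a level of 8 on 4 of them. Its gene lies at chr2:152736251-152737410, and 1 probe set measures it. The level was 6.77, 6.45 and 7.38 in Math1 tumours and 7.90, 7.45 and 6.63 in Tlx3 tumours. The Olig2 tumours had 6.89, 6.67, 7.90, 7.11, 8.82, 9.08 and 9.32, and the hGFAP tumours ran from 6.79 over a median of 7.12 to 7.52. The Ptc1+/- tumours had 7.19 and 9.13, against 6.10 to 7.14 (median 6.78) in tissue without tumour. The 12 arrays above all controls were 1 Math1, 2 Tlx3, 4 Olig2, 3 hGFAP and both Ptc1+/- tumours.

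The difference of Id1 was 0.76 over all tumours (SE 0.32, adjusted p = 0.047). Of single groups, Olig2 tumours passed at 1.246 (adjusted p = 0.00688) and Ptc1+/- tumours at 1.43 (adjusted p = 0.0427). The remaining groups did not pass, with 0.14 for Math1 (adjusted p = 0.856), 0.60 for Tlx3 (adjusted p = 0.331) and 0.40 for hGFAP tumours (adjusted p = 0.438). The 4 arrays with a level over 8, which are Olig2 tumours 5, 6 and 7 and Ptc1+/- tumour 2, were among the 7 dimmest as deposited, with trimmed means of 75.48, 77.88, 42.58 and 47.27. The other 3 dim arrays had Id1 at 7.90, 7.11 and 7.33. Without the 7 dim arrays the difference was 0.32 over all tumours (adjusted p = 0.18) and 0.05 in Olig2 tumours (adjusted p = 0.909). Without Ptc1+/- tumour 2 it was 0.46 in the lone Ptc1+/- tumour (adjusted p = 0.682) and 0.57 over all tumours (adjusted p = 0.135). The call in Ptc1+/- tumours was also lost without any of controls 4, 5 and 6 (1.31 to 1.41, adjusted p from 0.0585 to 0.0745). That over all tumours was also lost without any of controls 3 to 6 (0.64 to 0.80, adjusted p from 0.0595 to 0.129), and without any of Math1 tumours 1 and 3, Tlx3 tumours 1 and 2, Olig2 tumour 5 and hGFAP tumours 1 to 4 (0.71 to 0.77, adjusted p from 0.0505 to 0.0724). The deposited signals without any scaling gave 0.41 over all tumours (adjusted p = 0.237).

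Id2, which binds E proteins and is expressed in neuronal precursors and mature neurons, showed no called difference on its brightest probe set. Its gene lies at chr12:25093799-25096092. The level was 10.25, 9.68 and 9.70 in Math1 tumours and 10.44, 10.07 and 10.25 in Tlx3 tumours. It ran from 9.17 over a median of 10.02 to 11.56 in Olig2 tumours and from 8.87 over a median of 10.26 to 12.02 in hGFAP tumours. The Ptc1+/- tumours had 9.52 and 9.28, against 9.70 to 10.44 (median 10.18) in tissue without tumour. The difference over all tumours was -0.14 (95% interval -0.79 to 0.50, adjusted p = 0.729).

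The spread of Id2 was wider in Olig2 (SD 0.82) and hGFAP tumours (SD 1.15) than in tissue without tumour (SD 0.28). The 3 highest arrays, hGFAP tumour 4 at 12.02, Olig2 tumour 3 at 11.56 and hGFAP tumour 6 at 10.84, had log2 3' to 5' ratios of 1.88, 1.72 and 1.67. The remaining 2 arrays with a high ratio, Olig2 tumour 4 and control 1, had ratios of 1.78 and 1.75. Olig2 tumour 4 had Id2 at 10.25, and control 1 had it at 10.44, the highest of the controls. The second probe set of Id2 gave -0.34 over all tumours (adjusted p = 0.367), and the dimmest gave 1.07 (adjusted p = 0.00194), with 19 of 21 tumour arrays above all controls. The probe sets of Id2 thus disagree.

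Of the ligands, Bmp2 and Bmp4 gave weak signals, and Bmp7 was above the median of the table on 26 of 27 arrays. Bmp2, which drives granule precursors out of division, had 1 probe set, at the floor on 14 of 27 arrays and above the median of the table on 0 of 27. Without the filter its difference over all tumours was 0.15 (SE 0.23, adjusted p = 0.658), so a change in Bmp2 was not measurable here. Bmp4, a close relative of Bmp2, had levels of 4.83, 5.15 and 5.48 in Math1 and 3.37, 4.83 and 5.01 in Tlx3 tumours. It ran from 3.95 over 5.04 to 5.78 in Olig2 and from 4.66 over 5.74 to 6.04 in hGFAP tumours. The Ptc1+/- tumours had 4.32 and 3.37, against 3.72 to 5.60 (median 4.97) in tissue without tumour. The groups overlapped. The 21 tumour arrays averaged 4.99, against 4.95 in tissue without tumour, and with groups weighted equally the difference was -0.16 over all tumours (interval -0.78 to 0.47, adjusted p = 0.702) and -1.10 in Ptc1+/- tumours (adjusted p = 0.104), where 1 of 2 arrays was at the floor. Without control 1 the Ptc1+/- difference was -1.35 (adjusted p = 0.0389).

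Bmp7, a ligand that signals through the same receptors, was lower in Tlx3 tumours. Its levels there were 5.86, 5.46 and 5.69, all under the lowest control (the share of all genes with this was not counted). They were 6.87, 6.43 and 6.67 in Math1 tumours, 5.93 to 6.83 (median 6.62) in Olig2 tumours, 6.29 to 7.00 (median 6.55) in hGFAP tumours and 6.25 and 6.96 in Ptc1+/- tumours, against 6.05 to 7.04 (median 6.46) in tissue without tumour. The difference was -0.79 in Tlx3 tumours (SE 0.25, adjusted p = 0.0117) and -0.04 over all tumours (interval -0.37 to 0.30, adjusted p = 0.878), where the 21 arrays averaged 6.47, against 6.46 in tissue without tumour. The call in Tlx3 tumours was lost without Tlx3 tumour 2, at -0.68 (adjusted p = 0.0703), with controls of the SmoM2 tumour lines only, at -0.59 (adjusted p = 0.113), and on the signals as deposited, at -0.40 (adjusted p = 0.458). It was also lost with a block for the replicate number, at -0.58 (adjusted p = 0.061), and on the second brightest probe set, at -0.20 (adjusted p = 0.758). The other 2 probe sets of Bmp7 did not pass the filter.

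**Figure D3:**
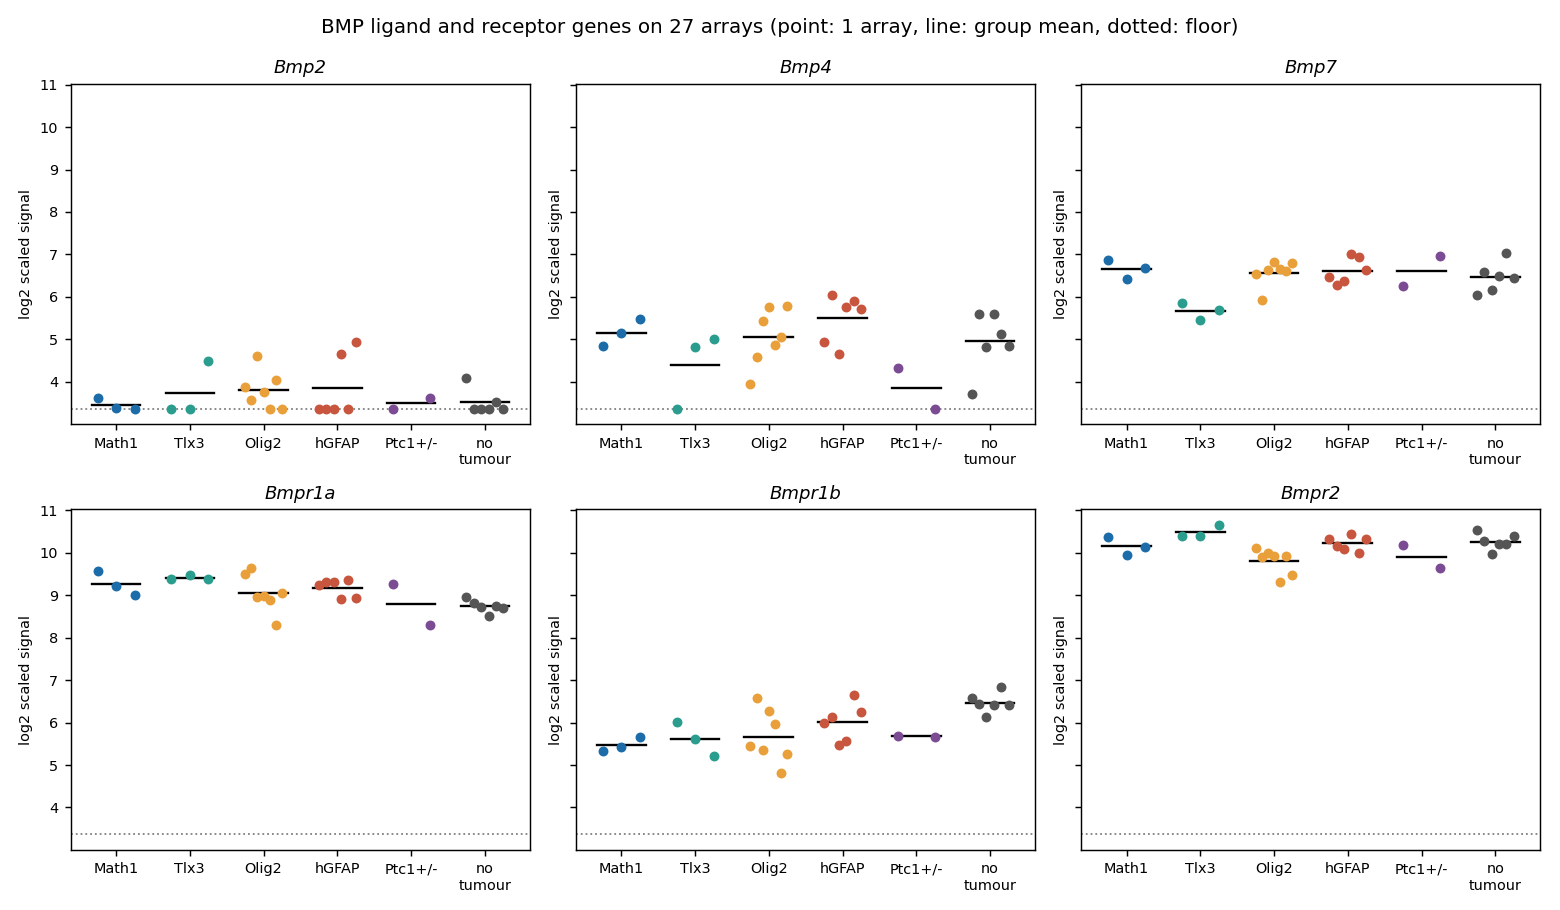
Levels (log2 scaled signal) of the ligand genes Bmp2, Bmp4 and Bmp7 and the receptor genes Bmpr1a, Bmpr1b and Bmpr2 on 27 arrays; each point is 1 array, the line is the group mean and the dotted line is the floor at 3.37. Bmp2 lies at the floor on 14 of 27 arrays, Bmp7 is lowest in Tlx3 tumours, and Bmpr1b lies below all controls on 17 of 21 tumour arrays.

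The type I receptors moved apart. Bmpr1b, a type I receptor kinase of the developing nervous system, was lower. Its levels were 5.34, 5.43 and 5.66 in Math1 and 6.02, 5.60 and 5.22 in Tlx3 tumours. They ran from 4.80 over 5.45 to 6.58 in Olig2 and from 5.47 over 6.06 to 6.64 in hGFAP tumours, and were 5.68 and 5.66 in Ptc1+/- tumours, against 6.12 to 6.84 (median 6.42) in tissue without tumour. Of 21 tumour arrays 17 lay below all controls and 0 above. The difference was -0.78 over all tumours (SE 0.21, adjusted p = 0.00299). Math1 tumours passed at -0.99 (adjusted p = 0.0143), Tlx3 tumours at -0.85 (adjusted p = 0.0334) and Olig2 tumours at -0.79 (adjusted p = 0.00924). It was -0.45 in hGFAP (adjusted p = 0.167) and -0.79 in Ptc1+/- tumours (adjusted p = 0.0937), which did not pass. Without Math1 tumour 1 the Math1 difference was -0.92 (adjusted p = 0.0641), and without any of Tlx3 tumours 2 and 3 and controls 1 and 5 the Tlx3 difference was -0.85 to -0.65 (adjusted p from 0.0517 to 0.176). Without the 7 dim arrays the Olig2 difference was -0.45 (adjusted p = 0.273), and with controls of the SmoM2 tumour lines only that over all tumours was -0.69 (adjusted p = 0.0665). The other 2 probe sets of Bmpr1b were too dim for the filter, and the brighter of them gave 0.11 over all tumours (adjusted p = 0.772), so the fall rests on 1 probe set.

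Bmpr1a, the widely expressed type I receptor, was slightly higher. Its levels were 9.56, 9.22 and 9.01 in Math1 and 9.38, 9.47 and 9.38 in Tlx3 tumours. They ran from 8.31 over 8.99 to 9.65 in Olig2 and from 8.91 over 9.28 to 9.35 in hGFAP tumours, and were 9.26 and 8.31 in Ptc1+/- tumours, against 8.52 to 8.96 (median 8.73) in tissue without tumour. Of 21 tumour arrays 16 lay above all controls and 2 below. The difference was 0.40 over all tumours (SE 0.16, adjusted p = 0.0331), and of the single groups only Tlx3 tumours passed (0.67, adjusted p = 0.0221). Math1 (0.53, adjusted p = 0.0758) and hGFAP tumours (0.44, adjusted p = 0.0642) fell just short, and both passed in some of the alternatives. Ptc1+/- tumours gave 0.04 (adjusted p = 0.918). Among the 4 SmoM2 groups limma's F test did not call Bmpr1a (adjusted p = 0.646). The Olig2 difference was 0.31 with all arrays (adjusted p = 0.164) and 0.43 without Olig2 tumour 6 (adjusted p = 0.0345). Without the 7 dim arrays, which leaves only Olig2 tumours 1 and 2, it was 0.84 (adjusted p = 0.000433). Of 5 probe sets that passed the filter 4 were called higher over all tumours, at 0.40, 0.50, 0.81 and 0.97, and the dimmest gave 0.03 (adjusted p = 0.925). The call over all tumours was lost on the signals as deposited, at 0.048 (adjusted p = 0.921), and with controls of the SmoM2 tumour lines only, at 0.31 (adjusted p = 0.282). It was also lost without Ptc1+/- tumour 1, at 0.30 (adjusted p = 0.0984), without Math1 tumour 1, at 0.37 (adjusted p = 0.0535), and without any of controls 3 to 6, with adjusted p from 0.0556 to 0.0857. In Tlx3 tumours it was lost without each of the 3 arrays in turn, with adjusted p from 0.054 to 0.0752.

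Bmpr2, the type II receptor that activates both, was not called over all tumours, at -0.15 (interval -0.41 to 0.11, adjusted p = 0.346). It was lower in Olig2 tumours, at 9.31 to 10.12 (median 9.92), against 9.97 to 10.53 (median 10.25) in tissue without tumour. That difference was -0.46 (SE 0.15, adjusted p = 0.0119), with 5 of 7 arrays below all controls. Without the dim arrays it was -0.25 (adjusted p = 0.26), and another probe set of Bmpr2 gave 0.076 (adjusted p = 0.842). Over all tumours the 2 dimmer probe sets gave 0.52 (adjusted p = 0.0702) and 0.48 (adjusted p = 0.12), against the direction of the brightest.

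Group by group, the number of members called was 3 of 9 in Math1 tumours (37.4% of all genes), 5 of 9 in Tlx3 tumours (40.3%), 5 of 9 in Olig2 tumours (49.6%), 2 of 9 in hGFAP tumours (41.7%) and 2 of 9 in Ptc1+/- tumours (36.3%). Id4 was among them in all 5 groups and Id3 in the 4 SmoM2 groups. In Math1, hGFAP and Ptc1+/- tumours fewer members were called than the share over all genes, and with 9 members no difference from that share was tested.

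**Figure D4:**
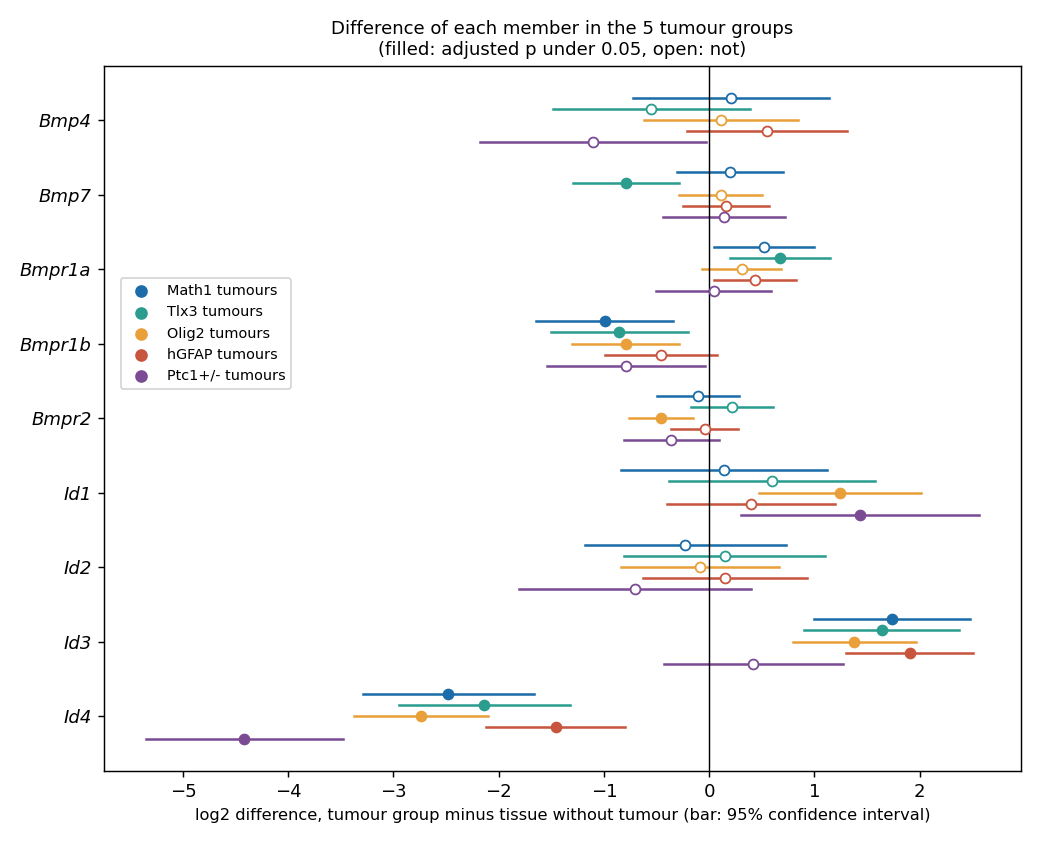
Difference of each of the 9 tested members from tissue without tumour (log2, horizontal axis) in each of the 5 tumour groups; points are limma estimates, bars are 95% confidence intervals, and filled points have an adjusted p under 0.05. All Id4 intervals lie below 0, the Id3 intervals of the 4 SmoM2 groups lie above 0, and the Id2 and Bmp4 intervals of the SmoM2 groups include 0.

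Among the 4 SmoM2 groups limma's F test called 0 of 9 members (0.946% of all genes), with 3 of 9 at an unadjusted p under 0.05, as were 21.1% of all genes. The nearest were Bmp7 (adjusted p = 0.0843), Id4 (adjusted p = 0.0886) and Bmpr2 (adjusted p = 0.104). Bmp7 passed without Olig2 tumour 2 (adjusted p = 0.0413), and Id4 passed without Olig2 tumour 2 (adjusted p = 0.0344) or Olig2 tumour 4 (adjusted p = 0.0345). The mean of hGFAP and Olig2 tumours against that of Math1 and Tlx3 tumours gave 0 of 9 calls (0.259% of all genes), with 2 of 9 at an unadjusted p under 0.05, as were 15.5% of all genes. Between single groups, Id4 was higher in hGFAP tumours, at 8.07 to 9.65, than in Olig2 tumours, at 6.45 to 8.55. The difference was 1.28 (SE 0.31, adjusted p = 0.0269), and it was the 1 of 9 members called (2.99% of all genes). The other 2 probe sets of Id4 gave 1.63 (adjusted p = 0.00617) and 0.92 (adjusted p = 0.0315). On the brightest probe set the 3 lowest Olig2 arrays, at 6.45, 6.76 and 6.85, were dim ones. Without the dim arrays the difference was 1.10 (adjusted p = 0.159), and without any of Olig2 tumours 5, 6 and 7 or hGFAP tumours 3 and 5 it was 1.09 to 1.28 (adjusted p from 0.0501 to 0.0755). Summed astrocyte and Bergmann glia markers were 13.29 to 13.93 in hGFAP and 13.14 to 13.71 in Olig2 tumours. Median sums in hGFAP and Olig2 tumours were 10.30 and 8.23 for Purkinje cells and 10.92 and 9.77 for oligodendrocytes. For mature granule neurons they were 12.12 and 11.68. Granule neuron precursors (14.36 and 14.49) and oligodendrocyte precursors (10.25 and 10.86) had lower sums in hGFAP tumours. The part of any of these cell types in this difference was not tested.

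In Ptc1+/- tumours against the 4 SmoM2 groups, Id4 was the 1 of 9 members called (0.547% of all genes). Its levels were 5.00 and 6.47 in Ptc1+/- tumours and 6.45 to 9.65 on the 19 SmoM2 arrays, with 1 Olig2 tumour between the Ptc1+/- arrays, so that Id4 was not among the 0.976% of genes with both below all SmoM2 arrays. The difference was -2.21 (SE 0.42, adjusted p = 0.0113). The other 2 probe sets gave -1.53 (adjusted p = 0.0818) and -1.18 (adjusted p = 0.092), and without Ptc1+/- tumour 1 the difference was -1.48 (adjusted p = 0.172), with the lone array assumed to vary like the other groups. In this comparison Aqp4, a water channel of astrocytes, was 1 of 9 astrocyte and Bergmann glia genes called, at -2.74. Against hGFAP tumours alone the difference of Id4 was -2.96 (adjusted p = 0.00112, 1 of 9 members called, 1.43% of all genes). The remaining 8 of 10 pairs of tumour groups gave 0 of 9 members called in limma, with 1 to 5 members at an unadjusted p under 0.05, which 4.26% to 18.9% of all genes reached in those pairs. The pair with 5 was Ptc1+/- against Tlx3 tumours, where the share of all genes was 15%. Of all genes, 0.754% were called between hGFAP and Tlx3, 0.037% between hGFAP and Math1, 0.2% between Olig2 and Tlx3, 0.0296% between Olig2 and Math1 and 0% between Tlx3 and Math1 tumours. Ptc1+/- tumours gave 0.111% against Math1, 0.163% against Tlx3 and 0.155% against Olig2 tumours.

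The rest of the pathway was read from lists of genes by role, with the median difference over all 13527 genes at 0.02 as the yardstick. A list of 11 other genes named as ligands had 6 tested, of which 0 rose and 4 fell over all tumours, with a median of -0.83. Of the 4 that fell, 3 encode ligands. Gdf10, a ligand of Bergmann glia and the lowest of the list, differed by -2.76 (adjusted p = 6.67e-10). Bmp6 differed by -1.55 (adjusted p = 1.17e-05) and Bmp5 by -0.88 (adjusted p = 0.0484). The fourth, Bmp1, at -0.78 (adjusted p = 7.34e-05), is a protease that cleaves the BMP antagonist chordin and not a ligand of the family.

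Among 10 other receptors and co-receptors 3 rose and 2 fell, with a median of -0.06. Acvr2b, a type II receptor, rose by 1.55 (adjusted p = 1.78e-07), Rgmb, a BMP co-receptor, by 0.74 (adjusted p = 0.0438) and Neo1, its binding partner, by 0.70 (adjusted p = 0.00353). The activin type I receptor genes Acvr1b and Acvr1c were lower, at -1.23 (adjusted p = 5.35e-07) and at -2.54 (adjusted p = 5.96e-10), for Acvr1c with 8 tumour arrays at the floor. Of 6 Smads 4 were tested, 2 rose and 1 fell. Smad5, a receptor-activated Smad, rose by 0.62 (adjusted p = 0.0141) and Smad4, the common partner, by 0.56 (adjusted p = 0.018). Smad1 stood at 0.47 (adjusted p = 0.0927), and Smad7, an inhibitory Smad that the pathway itself induces, was lower at -0.86 (adjusted p = 8.67e-05).

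Of 14 secreted and membrane antagonists 8 were tested, 2 rose and 2 fell, with a median of -0.28. Fstl1, a secreted follistatin-like protein, rose by 2.40 (adjusted p = 2.97e-08) and Twsg1, which binds BMPs together with chordin, by 0.52 (adjusted p = 0.0244). Chrd, the gene of chordin, differed by -0.84 (adjusted p = 0.011) and Bmper, a BMP-binding regulator, by -0.82 (adjusted p = 0.0133), with 1 tumour array at the floor. Of 7 intracellular negative regulators 4 rose and 2 fell. Zeb2, a Smad-binding repressor, rose by 1.44, Smurf1 and Smurf2, ubiquitin ligases for Smads and receptors, by 0.73 and 0.33, and the corepressor Skil by 0.55. Its relative Ski differed by -1.30 and Tob2 by -1.15.

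Other genes known as BMP targets did not share a direction. Of 11 listed 6 were tested, 2 rose and 3 fell, with a median of -0.26. Tgif1, a homeobox corepressor of Smads, rose by 3.69 (adjusted p = 1.13e-11, 1 control array at the floor) and Hey1, a bHLH repressor shared with the Notch pathway, by 1.81 (adjusted p = 1.48e-07). The homeobox genes Msx2 and Msx1 were lower, Msx2 at -1.81 (adjusted p = 1.97e-05, 5 tumour arrays at the floor) and Msx1 at -0.74 (adjusted p = 0.0216), as was Gata2, a zinc finger factor, at -0.39 (adjusted p = 0.0424).

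The list of E proteins, which Id proteins capture, and of neuronal and oligodendrocyte bHLH factors had 7 of its 10 genes tested. Of these 6 rose and 0 fell, with a median of 1.51, and 3 of the 6 are E protein genes. The E protein genes Tcf3, Tcf4 and Tcf12 rose by 2.11 (adjusted p = 1.97e-08), 1.06 (adjusted p = 1.38e-07) and 0.80 (adjusted p = 0.0194). Atoh1 rose by 4.69 (adjusted p = 9.97e-13), Olig2 by 2.54 and Olig1 by 1.51. Neurod1, which drives granule neurons to differentiate, stood at -0.48 (adjusted p = 0.0707). The lists were chosen with earlier results of these arrays known, and Olig2 and Atoh1 were among the genes already described.

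**Figure D5:**
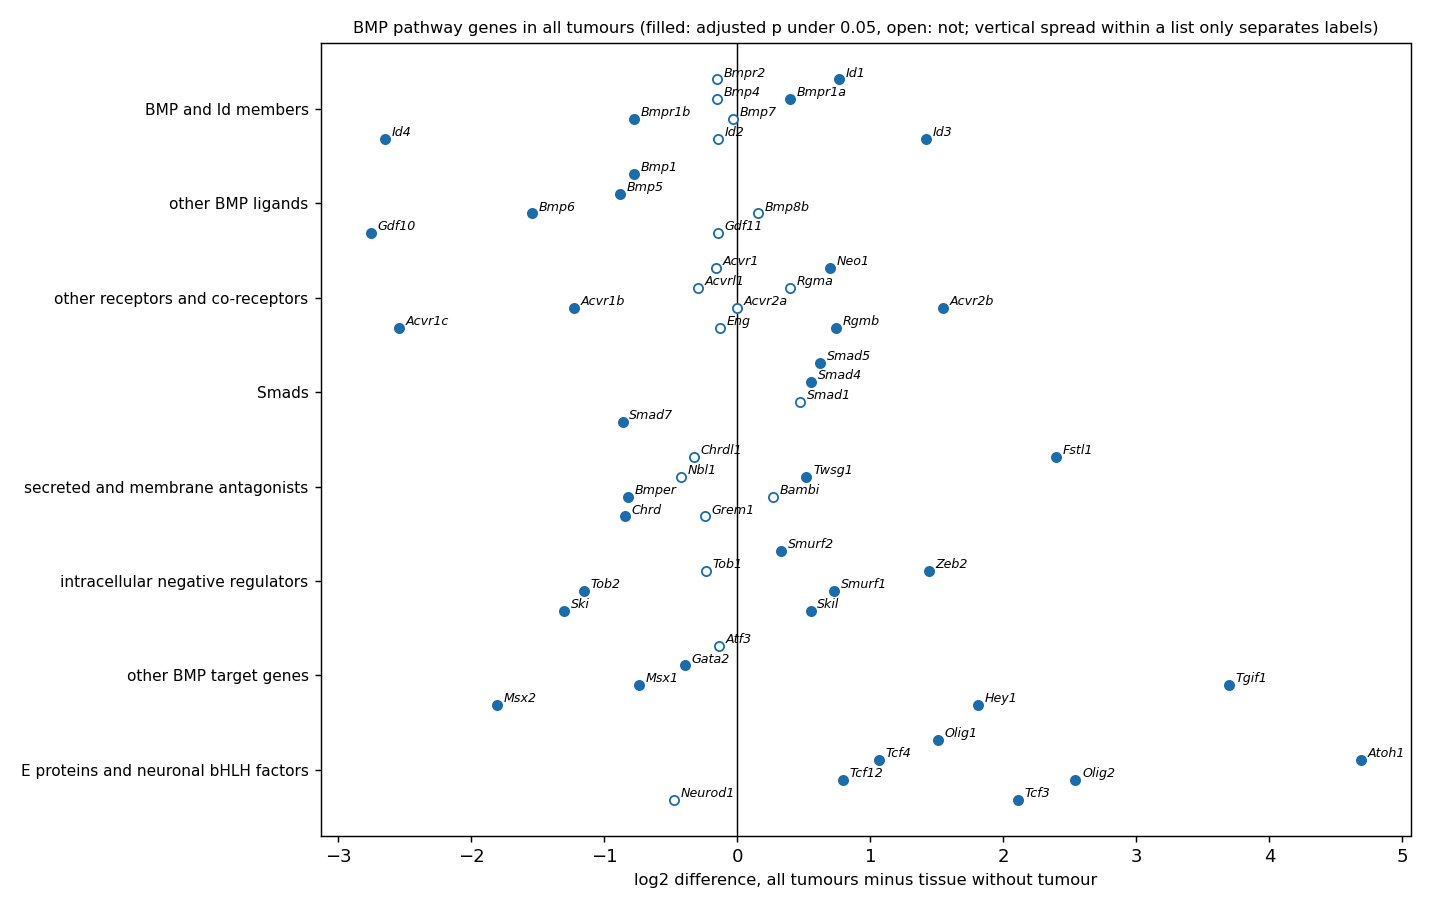
Difference over all tumours minus tissue without tumour (log2, horizontal axis) of the tested members and of the genes of 7 pathway lists; each point is 1 gene, filled where the adjusted p was under 0.05, and the vertical spread within a list only separates the labels. Of the E protein and bHLH genes 6 of 7 lie above 0 and are filled, and on the list of other ligands 4 genes are filled and lie below 0, of which 3 encode ligands and Bmp1 encodes a protease.

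The genes whose course over the 27 arrays lay nearest to each Id gene were found by the root mean square difference of levels after each gene was centred on its own mean. For Id4, whose own SD over the arrays was 1.35, these were Abhd3 (0.532), Gabrb1 (0.569) and Slc4a4 (0.577), with differences over all tumours of -3.16, -1.82 and -1.77. For Id3, with an SD of 0.88, they were Nkiras2 (0.468), Socs2 (0.508) and Zdbf2 (0.524), with differences of 1.36, 1.34 and 1.54. For Id1, with an SD of 0.84, they were Ubxn1 (0.441), Zpr1 (0.443) and Vcp (0.455), and for Id2, with an SD of 0.68, Chaserr (0.332), Eid1 (0.348) and G3bp2 (0.361). These distances share the arrays and their scaling.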

How the data were processed

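RNA from 27 samples in 6 groups was measured on arrays, and the authors deposited 1 linear signal intensity per probe set (45101 in all). MAS5 is the software named, per the submitters' processing notes. The MAS5 version and the scaling target are not given in the sources used here, and, without detection calls, a low signal cannot be told apart from background. Per the labels' protocols, Trizol and RNeasy served for extraction and the cRNA carried biotin. Trimmed means (2% from each end) of the deposited arrays ran from 42.58 to 205.96, and each array was rescaled to 123.61. No 2 arrays held identical values.

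The 20th percentile of the whole table (10.3) served as a floor for lower signals and log2 values were taken. Probe sets above the table median (45.6) on at least 3 arrays were kept (30107), 64 control probe sets were left out, and each gene was read from its brightest probe set. Gene names came from a GEO platform annotation of older date, so a probe set can miss or share transcripts. limma 3.58.1 in R 4.3.3 fitted a mean for each of 6 groups, with moderation by trend and robust fit (21 residual degrees of freedom), with Benjamini-Hochberg adjustment across 13527 genes. Tests of single probe sets were adjusted over all probe sets kept. The number of arrays limits the precision. The model was tested on simulated data.

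The members, the gene lists and the tests were chosen with earlier results of these data known. All 10 members are named, and from each list the highest and lowest called gene and up to 3 more with a described role. Bmpr1b, Bmp7 and others have further probe sets that failed the filter. Titles number the replicates. Arrays with the same number in different groups had a median correlation of deviations of 0.03 (49 pairs, 19 over 0.1, range -0.34 to 0.28). For arrays with different numbers the median was 0.004 (244 pairs). The numbers were not treated as pairs in the main model, and these values cannot tell whether some arrays were handled together. Alternatives changed the scaling, floor, filter, probe set, arrays in the model, moderation, weights and a block for the replicate number, and left out arrays. Reading every probe set as its own feature, and keeping only controls of SmoM2 tumour lines, were chosen after seeing the data.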

Additional observations from a re-analysis of the deposited data

Results flagged for a closer look

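Bmp7 on Olig2 tumour 2 stood at 5.93, apart from the other Olig2 tumours (6.62 as the group median). This was 1 of 27 sets of a member in a group of 4 to 10 arrays that were checked for a lone array, and chance alone gives about 1 in 20. With all arrays the difference of Bmp7 between Olig2 and Tlx3 tumours was 0.90 and was not called (limma adjusted p = 0.0898). Without that array, the lowest of the Olig2 tumours, the difference was 1.00 (adjusted p = 0.0278).

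Id4 differed between tumour groups in 3 comparisons tested in limma. It was -2.21 in Ptc1+/- against SmoM2 tumours (SE 0.42, adjusted p = 0.0113), with both Ptc1+/- arrays, at 5.00 and 6.47, below 18 of the 19 SmoM2 arrays. It was -2.96 in Ptc1+/- against hGFAP tumours (SE 0.46, adjusted p = 0.00112), where both arrays lay below all 6 hGFAP arrays (the share of all genes with this was not counted). It was 1.28 in hGFAP against Olig2 tumours (SE 0.31, adjusted p = 0.0269).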

How the results depend on the processing

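The falls of Id4 and the gain of Id3 over all tumours kept their direction and passed the test in all 18 alternatives and without each of the 27 arrays, with Id4 from -2.99 to -2.08 and Id3 from 1.07 to 1.48 over the alternatives. Some alternatives could not change these values. Over all tumours, the model with only the groups compared holds every group and equals the main one. Id3 has 1 probe set, so a change of probe set leaves its levels as they were. Over the 7695 values of 171 member results, 7507 kept their side of the threshold, and 266 of these changed sign while not called. Leaving out an array of a group outside a comparison cannot change that difference. Of the remaining values, 93 no longer passed, 92 newly passed and 3 turned round with a call before or after. The 3 were Bmpr1b over all tumours with the second brightest probe set (0.11), Bmpr2 in Olig2 tumours with the second brightest probe set (0.076) and Bmpr2 in Ptc1+/- tumours with the mean of the probe sets (0.59, adjusted p = 0.0342). The cause of each change was not tested. Id1 over all tumours did not pass in 8 of 18 alternatives and without any of 14 of the 27 arrays, Bmpr1a in 3 and 6, and Id4 in hGFAP against Olig2 tumours in 5 and 5.

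Of 9 members, the number called changed as follows. With signals as deposited and no rescaling it was 3 over all tumours, 2 in Tlx3, 3 in Olig2 and 5 in Ptc1+/- tumours, 2 among the SmoM2 groups, 3 for hGFAP plus Olig2 against Math1 plus Tlx3, and 2 for Ptc1+/- against SmoM2, and the median of all genes moved to -0.34 over all tumours and to -1.01 in Ptc1+/- tumours. There Id3 in Olig2 tumours was 0.71 (adjusted p = 0.128). With the replicate block it was 3 over all tumours and 2 in Tlx3 tumours, and the titles do not say that shared numbers pair the arrays. With controls of the SmoM2 tumour lines only it was 2 over all tumours, 2 in Tlx3, 2 in Olig2 and 1 in Ptc1+/- tumours, with fewer control arrays. With the second brightest probe set it was 2 in Tlx3 tumours, 1 among the SmoM2 groups and 0 for Ptc1+/- against SmoM2. With array weights it was 1 in Ptc1+/- tumours, 3 among the SmoM2 groups and 0 for Ptc1+/- against SmoM2. With the mean of the probe sets it was 4 in Ptc1+/- tumours and 1 among the SmoM2 groups. Without the dim arrays it was 3 in Olig2 and 1 in Ptc1+/- tumours, and without arrays of high 3' to 5' ratio 1 among the SmoM2 groups. In Ptc1+/- tumours it was 4 with only the groups compared, and 1 with no filter, without trend and robust fit, with the ratio as a covariate and with every probe set as its own feature.

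Leaving out 1 array at a time gave 3 to 5 calls over all tumours, 2 to 4 in Math1, 2 to 5 in Tlx3, 5 to 6 in Olig2, 2 to 3 in hGFAP and 1 to 3 in Ptc1+/- tumours, 0 to 2 among the SmoM2 groups, 0 to 0 for hGFAP plus Olig2 against Math1 plus Tlx3, and 0 to 1 for Ptc1+/- against SmoM2. The limits are few arrays in the Math1, Tlx3 and Ptc1+/- groups, and levels near the floor for Bmp2 and Bmp4.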
